A study of Mus musculus with 8 samples.

Results

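Fatty acid oxidation in mitochondria breaks acyl chains down to acetyl-CoA. Chains are joined to coenzyme A by acyl-CoA synthetases, carried over the inner membrane as carnitine esters, and shortened in repeated cycles of dehydrogenation, hydration, a further dehydrogenation and thiolysis. The first dehydrogenation hands its electrons to the respiratory chain through the electron transfer flavoprotein. Ketone bodies, the water-soluble fuels made from acetyl-CoA, are interconverted by Bdh1 and are used through Oxct1 and Acat1. Alveolar macrophages, the phagocytes of the airspaces, take up surfactant lipid and carry much of this machinery.

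The genes described here are 34 named members of these pathways, taken by gene symbol from a table of 15521 genes, and all 34 were found and tested. They were picked by name as members of the pathways, at a time when earlier results of these data were known. Mouse alveolar macrophages from lung lavage had been purified by adherence for 2 h and kept with the growth factor GM-CSF at 10 ng/ml. The 4 groups of 2 libraries each received vehicle (DMSO), MSDC at 10 µM, Poly(I:C) at 5 µg/mL with vehicle, or Poly(I:C) at 5 µg/mL with MSDC, and vehicle or MSDC was given 2 h before Poly(I:C). The stimulation lasted 24 h by the sample labels and overnight by the series text. MSDC is the prefix of a series of code-named molecules for which a known target is the carrier that brings pyruvate into mitochondria. The compound number is absent from the labels, and action on other targets was not tested. Poly(I:C) is a synthetic double-stranded RNA that stands in for viral RNA. The labels give treatments in the place of the mouse strain and no age or sex, and nothing in them ties the libraries of a group to separate animals or cultures. Every p-value therefore reflects the spread between libraries alone, which may be technical.

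Library totals were 28762425 to 29493223 estimated counts. The alveolar macrophage markers were abundant, with all 10 of 10 present and a summed level of 11810 to 13840 TPM, the deposited level scaled for transcript length and library depth. This sum hides movement of single markers over the libraries. Chil3 ran from 4260 to 8579 TPM, Ear2 from 977 to 3317, Fabp4 from 598 to 2196 and Marco from 259 to 1041, while Siglecf kept to 232 to 261. Markers of other cells were near the floor for T cells, B cells, fibroblasts and NK cells (at most 0.78 summed TPM in any library). Some low marker lists moved with MSDC. Monocyte markers, 3 of 4 listed, summed to 2.07 to 2.2 TPM with vehicle, 0.36 to 0.62 with MSDC, 2.64 to 2.65 with Poly(I:C) and vehicle, and 0.54 to 1.02 with both. Endothelial markers, 3 of 4 listed, summed to 1.01 to 1.44, 0.37 to 0.49, 1.49 to 1.69 and 0.46 to 0.58 TPM in the same order, and dendritic cell markers, 4 of 4, to 1.35 to 1.37, 0.74 to 0.75, 1.17 to 1.19 and 0.56 to 0.57 TPM. Neutrophil markers, 2 of 5 listed and mostly S100a8, summed to 27.1 to 33.5, 39.6 to 47.8, 29.6 to 29.8 and 33 to 43.8 TPM. Lung epithelial markers, 6 of 6 and mostly Cdh1, summed to 35.1 to 37, 26.9 to 30.4, 22.2 to 24.4 and 22.1 to 24.1 TPM. Cdh1 alone stood at 19.6 to 33.3 TPM over the libraries, and the highest of the other epithelial markers, Ager, reached 2.21 TPM. The part of these cells in the results below was not tested. In bulk RNA, fewer cells of a type and less RNA per cell cannot be told apart.

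Promoter sequence is shown where it bears on members that moved together or that the nuclear receptor element AGGTCA marks. PPAR and RXR receptors, known activators of fatty acid oxidation genes, bind as a pair to 2 copies of this element in the same orientation with 1 base between them. RefSeq promoters of GRCm38.p6, running from 250 bases before to 50 bases after the start, were matched for 30 of the 34 genes. On both strands, 0 of the 30 held the exact repeat and 0 held it with at most 1 mismatch, against 0.0481% and 0.644% of 27025 genes. With shares this small, 0 is the likely count for any 30 genes. Sequence beyond these 300 bases was not searched, and receptor binding was not tested. A lone AGGTCA, which is also part of the repeat, was held by 4 of 30 (13.3%) against 18.1% of all genes. The 4 stretches follow, each 55 bases, read along the gene, with the element or its reverse complement in capitals. They lie at chr11:70015488-70015542 (Acadvl, minus strand), chr19:3323180-3323234 (Cpt1a, plus strand), chr3:153944839-153944893 (Acadm, minus strand) and chr7:140116477-140116531 (Echs1, minus strand). None of the 4 overlaps an exon of GENCODE M21. That of Cpt1a lies inside the span of a longer Cpt1a gene model, in an intron, and that of Echs1 inside the span of another gene, Paox.
Acadvl: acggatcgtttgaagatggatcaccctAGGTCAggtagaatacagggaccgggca
Cpt1a: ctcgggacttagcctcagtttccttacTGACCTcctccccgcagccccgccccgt
Acadm: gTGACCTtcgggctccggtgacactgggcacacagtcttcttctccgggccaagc
Echs1: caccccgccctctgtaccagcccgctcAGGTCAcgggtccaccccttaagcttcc
As given below, Acadvl and Cpt1a were higher with MSDC, Acadm was not called and Echs1 was lower, so the genes that hold the element did not share a direction.

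Hadha and Hadhb, which encode the α and β subunits of the mitochondrial trifunctional protein, lie head to head on chromosome 5 (Hadha at chr5:30119423-30154980 on the minus strand, Hadhb at chr5:30155253-30184593 on the plus strand), with 272 bases between their RefSeq starts. The stretch between the exons of both genes in GENCODE M21, chr5:30155163-30155247, is shown on the plus strand because this pair shares it and moved in the same direction with MSDC. It is 85 bases long, 69.4% of them G or C, and holds 0 AGGTCA elements on either strand.
Hadha-Hadhb: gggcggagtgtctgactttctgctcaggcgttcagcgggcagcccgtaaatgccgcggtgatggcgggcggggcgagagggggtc

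With vehicle alone the 34 genes summed to 3655 and 3618 TPM. Ucp2, an inner membrane carrier that is not an oxidation enzyme, had the highest level, 1831 and 1747 TPM, and took 37.9 to 51% of the members' sum over the 8 libraries. Next in order of level were Etfb (186 and 222 TPM), Oxct1 (187 and 189 TPM), Etfa (146 and 141 TPM) and Hadha (133 and 134 TPM). The levels of Etfb and Oxct1 overlapped between the libraries. The lowest were Acad12 (1.67 and 1.75 TPM) and Acad10 (2.69 and 2.8 TPM), acyl-CoA dehydrogenase relatives.

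The first question was what MSDC changed in these pathways without Poly(I:C). Of the 34 genes 19 were higher and 4 lower (55.9 and 11.8%), against 11.1% higher and 12.4% lower of all 11621 tested genes. Genes were called by the quasi-likelihood test of edgeR at a p under 0.05 after Benjamini-Hochberg adjustment, and all changes below are log2 fold changes from this test. The median log2 fold change was 0.35 over the members and 0.00 over all tested genes, and the members ranged from -0.99 to 1.16. The rises lay in carnitine entry, chain activation, steps of the cycle for long, short and unsaturated chains, and electron transfer. The 4 falls were Oxct1, Bdh1, Acadsb and Echs1.

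The same question was asked in cells given Poly(I:C). Again 19 genes were higher and 4 lower, against 12.5% higher and 13.6% lower of all tested genes, with a median log2 fold change of 0.43 and a range from -0.78 to 1.19. The same 19 and the same 4 genes were called in both settings and 11 in neither. These 2 comparisons share no library, but both come from a single model with an estimate of spread shared over the 4 groups. Their log2 fold changes over the 34 genes had Pearson's r = 0.969 and Spearman's rho = 0.964, which describes genes measured in the same libraries and is no count of independent replicates. The overlap of calls and the correlation were not computed over all tested genes. Whether this agreement is particular to the 34 genes was therefore not tested.

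**Figure D1:**
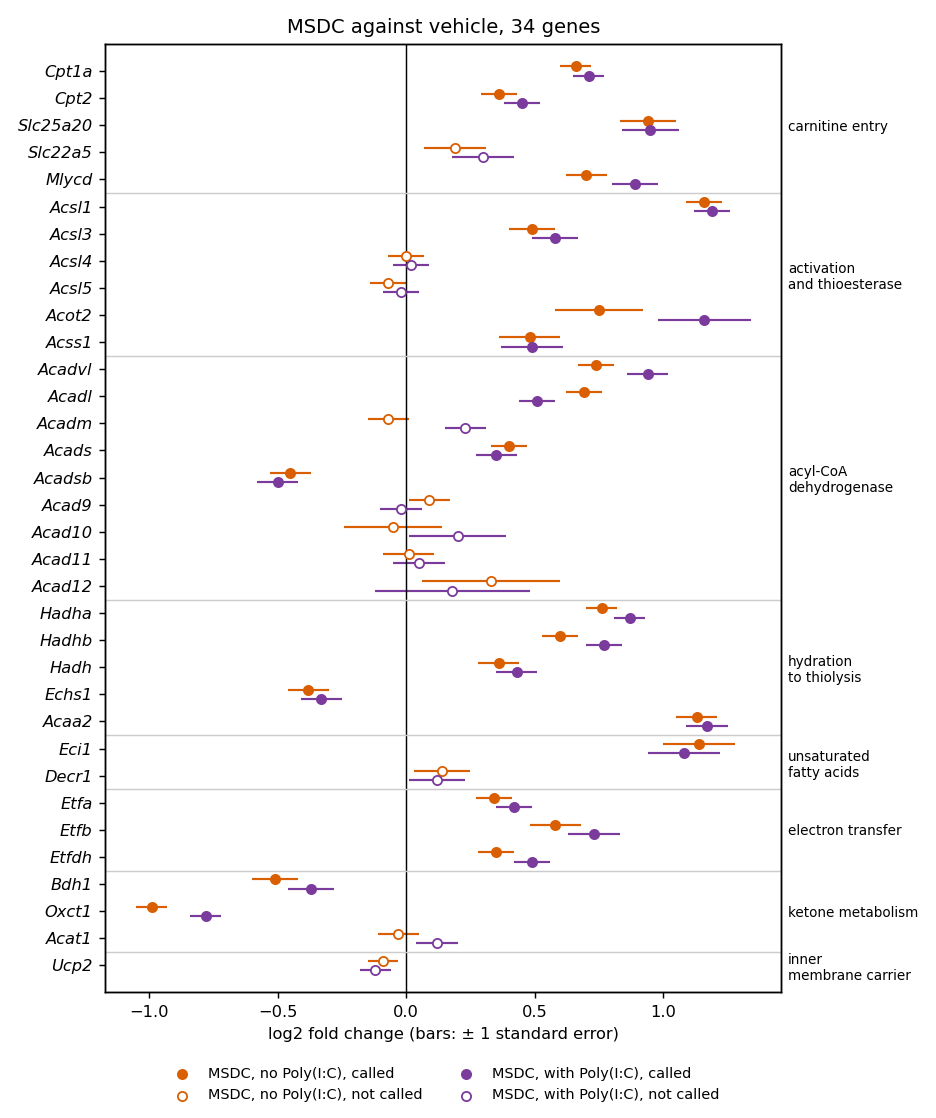
Log2 fold change of MSDC against vehicle (horizontal axis, bars ± 1 standard error) for the 34 genes, ordered by role, without Poly(I:C) (orange) and with it (purple). Filled points were called at an adjusted p under 0.05, and the largest fall, Oxct1, stands at -0.99 and -0.78.

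The carnitine step controls how much long-chain fatty acid reaches the matrix. Of its 5 genes 4 rose with MSDC in both settings. Cpt1a, which makes acylcarnitine at the outer membrane, stood at 88.4 and 86.4 TPM with vehicle, 142 and 129 with MSDC, 86.9 and 85.7 with Poly(I:C) and vehicle, and 143 and 145 with both. Slc25a20, the carrier that swaps acylcarnitine for carnitine across the inner membrane, stood at 17 and 14.5, 30.8 and 28.7, 17.7 and 15.2, and 33.4 and 31.6 TPM in the same order. Both MSDC groups lay above both groups without it. Cpt1a rose by 0.66 (SE 0.06, adjusted p = 6.44e-07) and by 0.71 (SE 0.06) with Poly(I:C), and Slc25a20 by 0.94 (SE 0.11) and 0.95 (SE 0.11).

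Mlycd, which removes malonyl-CoA, the inhibitor of Cpt1a, went from 26.3 and 28.3 TPM with vehicle to 43 and 45.2 with MSDC, and from 21.5 and 19.5 with Poly(I:C) and vehicle to 37.3 and 40.7 with both. It rose by 0.70 (SE 0.08) and 0.89 (SE 0.09). Cpt2, which returns the chain to coenzyme A in the matrix, rose by 0.36 (SE 0.07) and 0.45 (SE 0.07), and the first of these calls was lost without MSDC replicate 2 (0.29, adjusted p = 0.0543). Slc22a5, a carnitine importer of the cell surface, had values of 0.19 (SE 0.12, adjusted p = 0.286) and 0.30 (SE 0.12, adjusted p = 0.0775). Without replicate 2 of Poly(I:C) plus vehicle the second value was 0.50 (adjusted p = 0.0103).

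The genes of chain activation did not move as a family. Among the 4 long-chain acyl-CoA synthetases, Acsl1 stood at 68.4 and 58.7 TPM with vehicle, 147 and 129 with MSDC, 60.2 and 61 with Poly(I:C) and vehicle, and 145 and 145 with both. Acsl5 stood at 107 and 109, 103 and 96.4, 121 and 114, and 114 and 124.5 TPM, so that it was the more abundant of the pair without MSDC and the less abundant with it. Acsl1 rose by 1.16 (SE 0.07, adjusted p = 5.36e-09) and 1.19 (SE 0.07, adjusted p = 3.42e-09), the largest estimates among the 34 genes in both settings. Other rises lay within their standard error of these, so the order is not settled. They were Eci1 (1.14, SE 0.14) and Acaa2 (1.13, SE 0.08) without Poly(I:C), and Acaa2 (1.17, SE 0.08), Acot2 (1.16, SE 0.18) and Eci1 (1.08, SE 0.14) with it. Acsl5 had values of -0.07 (SE 0.07) and -0.02 (SE 0.07). Acsl3, found mainly at lipid droplets and the endoplasmic reticulum, rose by 0.49 (SE 0.09) and 0.58 (SE 0.09), while Acsl4, which prefers arachidonic acid, had values of 0.00 (SE 0.07) and 0.02 (SE 0.07).

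Acot2, a matrix thioesterase that releases free fatty acid from acyl-CoA, stood at 6.98 and 7.21 TPM with vehicle, 12.2 and 11.4 with MSDC, 3.36 and 5.34 with Poly(I:C) and vehicle, and 8.71 and 11.2 with both. It rose by 0.75 (SE 0.17, adjusted p = 0.00344) and 1.16 (SE 0.18, adjusted p = 1.45e-04). Acot1, its close relative, lies 15625 bases away on chromosome 12, and the counts of Acot2 were not whole numbers, so its reads may be split with a copy. Acss1, the matrix synthetase for acetate, rose by 0.48 (SE 0.12) and 0.49 (SE 0.12). Its first call was lost without MSDC replicate 2 (0.44, adjusted p = 0.066) and its second without replicate 1 of Poly(I:C) plus vehicle (0.32, adjusted p = 0.0918) or replicate 2 of Poly(I:C) with MSDC (0.44, adjusted p = 0.0614).

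**Figure D2:**
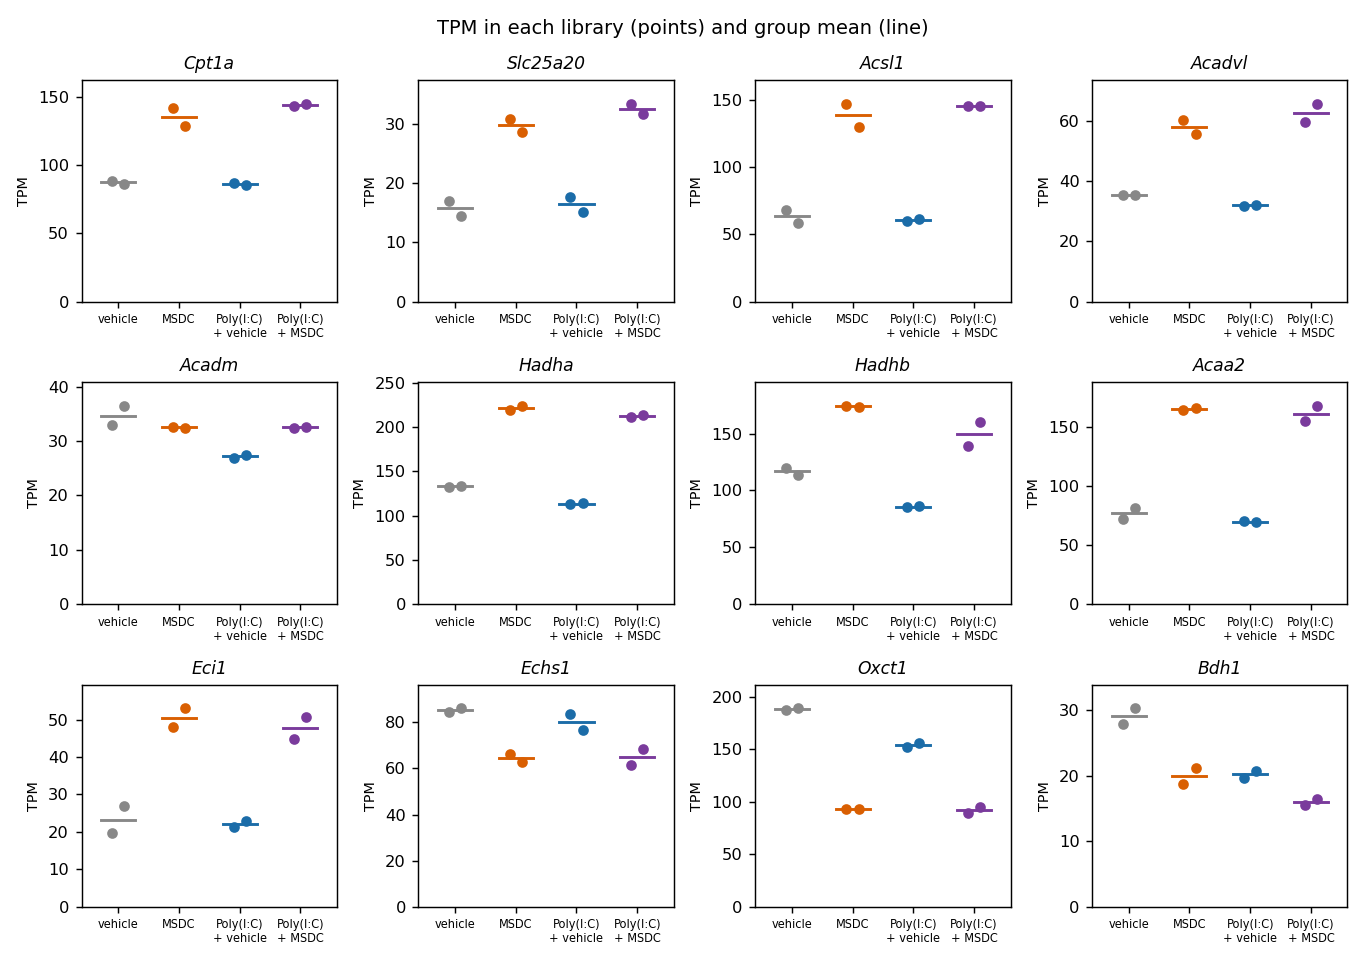
TPM (vertical axis, from 0) of 12 of the genes in each library (points) with the group mean (line), in the 4 groups. The MSDC groups lie above the others for Cpt1a, Slc25a20, Acsl1, Acadvl, Hadha, Hadhb, Acaa2 and Eci1, and below them for Echs1 and Oxct1.

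The acyl-CoA dehydrogenases each prefer a chain length and differed from each other. Acadvl, for very long chains, stood at 35.3 and 35.4 TPM with vehicle, 60.2 and 55.6 with MSDC, 31.9 and 32 with Poly(I:C) and vehicle, and 59.6 and 65.8 with both, and rose by 0.74 (SE 0.07) and 0.94 (SE 0.08). Acadl, for long chains, stood at 101 and 110.5, 165 and 171, 118 and 114.5, and 169 and 170 TPM, and rose by 0.69 (SE 0.07) and 0.51 (SE 0.07). Acads, for short chains, rose by less, 0.40 (SE 0.07, adjusted p = 8.21e-04) and 0.35 (SE 0.08, adjusted p = 0.00244).

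Acadm, for medium chains, stood between these in chain length but was not called. It was at 32.9 and 36.5 TPM with vehicle and 32.6 and 32.4 with MSDC, a value of -0.07 (SE 0.08, adjusted p = 0.632). With Poly(I:C) it was at 26.9 and 27.5 TPM with vehicle and 32.4 and 32.6 with MSDC, a value of 0.23 (SE 0.08, adjusted p = 0.0602, from 0.0273 to 0.208 over 16 alternative settings, of which 5 called it). Acadsb, for short branched chains of isoleucine breakdown, went the other way. It fell from 28 and 28.7 to 19.5 and 21.3 TPM and, with Poly(I:C), from 27.7 and 26 to 18.5 and 20.3 TPM, by 0.45 (SE 0.08) and 0.50 (SE 0.08) on the log2 scale. Acad9, an assembly factor of respiratory complex I, and Acad10, Acad11 and Acad12 were not called in either setting, with values between -0.05 and 0.33. Acad10 and Acad12 lie 2088 bases apart on chromosome 5 and had counts that were not whole, and Acad12, at 38.4 to 80.3 counts a library, was the member with the fewest counts.

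After the first dehydrogenation, long chains pass through the trifunctional protein of Hadha and Hadhb, whose shared upstream stretch is printed above. Hadha stood at 133 and 134 TPM with vehicle, 219 and 224 with MSDC, 113 and 114.5 with Poly(I:C) and vehicle, and 211 and 214 with both. Hadhb stood at 120 and 114, 174 and 174, 85.7 and 85.9, and 139 and 160 TPM. Hadha rose by 0.76 (SE 0.06, adjusted p = 5.95e-08) and 0.87 (SE 0.06, adjusted p = 1.17e-08), and Hadhb by 0.60 (SE 0.07) and 0.77 (SE 0.07).

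Shorter chains use separate enzymes, and these did not move together. Echs1, the short-chain hydratase, fell from 84.5 and 86.1 to 66.3 and 62.7 TPM, and with Poly(I:C) from 83.6 and 76.5 to 61.4 and 68.5 TPM, by 0.38 (SE 0.08) and 0.33 (SE 0.08) on the log2 scale. The second call was lost without replicate 1 of Poly(I:C) plus vehicle (-0.27, adjusted p = 0.0649) or replicate 1 of Poly(I:C) with MSDC (-0.26, adjusted p = 0.0769). Hadh, the next dehydrogenase, rose by 0.36 (SE 0.08) and 0.43 (SE 0.08). Acaa2, the thiolase that closes the cycle, stood at 72.1 and 81.2 TPM with vehicle, 164 and 165.5 with MSDC, 70.1 and 69.4 with Poly(I:C) and vehicle, and 154.5 and 167.5 with both. It rose by 1.13 (SE 0.08) and 1.17 (SE 0.08).

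Unsaturated chains need an isomerase and a reductase. Eci1, the isomerase that moves a double bond into place, stood at 19.6 and 27 TPM with vehicle, 48 and 53 with MSDC, 21.4 and 22.8 with Poly(I:C) and vehicle, and 44.7 and 50.7 with both. It rose by 1.14 (SE 0.14) and 1.08 (SE 0.14). Decr1, the reductase for chains with more than 1 double bond, had values of 0.14 (SE 0.11, adjusted p = 0.419) and 0.12 (SE 0.11, adjusted p = 0.463).

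All 3 genes of electron transfer rose in both settings. Etfb, the β subunit of the flavoprotein, stood at 186 and 222 TPM with vehicle, 299 and 300 with MSDC, 189 and 155 with Poly(I:C) and vehicle, and 274 and 310 with both, and rose by 0.58 (SE 0.10) and 0.73 (SE 0.10). Its partner Etfa rose by 0.34 (SE 0.07) and 0.42 (SE 0.07). Etfdh, which passes the electrons to ubiquinone, rose by 0.35 (SE 0.07) and 0.49 (SE 0.07). Ucp2 was not called, at 1831 and 1747, 1661 and 1630, 1622 and 1716, and 1645 and 1502 TPM.

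Of the 3 ketone genes 2 fell with MSDC in both settings. Oxct1, the transferase that commits ketone bodies to use as fuel, stood at 187 and 189 TPM with vehicle, 93.1 and 93 with MSDC, 152 and 156 with Poly(I:C) and vehicle, and 88.7 and 94.7 with both. It fell by 0.99 (SE 0.06, adjusted p = 5.39e-09) and by 0.78 (SE 0.06, adjusted p = 7.13e-08). Bdh1, which interconverts hydroxybutyrate and acetoacetate, stood at 27.9 and 30.3, 18.8 and 21.2, 19.7 and 20.7, and 15.5 and 16.5 TPM, so that the group given MSDC and the group given Poly(I:C) with vehicle overlapped. Bdh1 fell by 0.51 (SE 0.09, adjusted p = 4.08e-04) and 0.37 (SE 0.09, adjusted p = 0.00661), and the second call was lost without replicate 2 of Poly(I:C) plus vehicle (-0.34, adjusted p = 0.0537) or replicate 1 of Poly(I:C) with MSDC (-0.34, adjusted p = 0.0656).

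Acat1, the thiolase that splits acetoacetyl-CoA and also serves isoleucine breakdown, was at 47.6 and 51.7, 50.1 and 45.7, 45.8 and 43, and 48.4 and 50.3 TPM and was not called (-0.03 and 0.12, SE 0.08 each). Within a library, the ratio of Oxct1 to Cpt1a in TPM was 2.12 and 2.19 with vehicle, 0.657 and 0.721 with MSDC, 1.75 and 1.82 with Poly(I:C) and vehicle, and 0.619 and 0.652 with both. Oxct1 was thus the more abundant of these 2 transcripts in the libraries without MSDC and the less abundant in those with it.

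**Figure D3:**
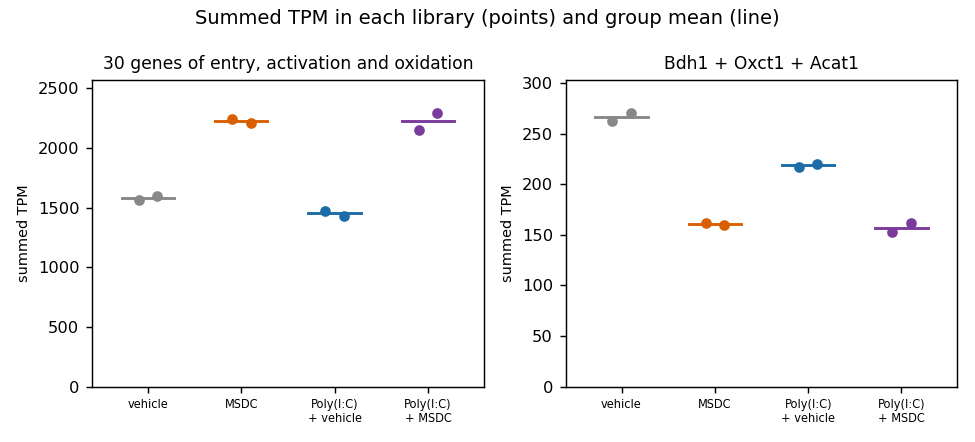
Summed TPM (vertical axes, from 0) of the 30 members other than the ketone genes and Ucp2 (left) and of Bdh1, Oxct1 and Acat1 (right), in each library (points) with the group mean (line). The first sum is 1428 to 1599 without MSDC and 2154 to 2297 with it, and the second 217.4 to 270.7 and 152.6 to 161.9.

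The response to Poly(I:C) itself was compared first without MSDC. None of the 34 genes was higher and 6 were lower (17.6%), against 7.52% higher and 4.1% lower of all tested genes, and 10 of the 34 (29.4%) had an unadjusted p under 0.05, against 24.2% of all tested genes. The median over the members was -0.06. The 6 were Bdh1, Hadhb, Mlycd, Acadm, Oxct1 and Acot2, whose levels are given above. Bdh1 fell by 0.47 (SE 0.09, adjusted p = 0.00222), Hadhb by 0.38 (SE 0.07, adjusted p = 0.00157), Mlycd by 0.36 (SE 0.09, adjusted p = 0.0137), Acadm by 0.29 (SE 0.08, adjusted p = 0.0333), Oxct1 by 0.23 (SE 0.06, adjusted p = 0.0191) and Acot2 by 0.64 (SE 0.19, adjusted p = 0.0356).

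Only Bdh1 and Hadhb were called under each of the 16 alternative settings, and the other 4 lost the call when these 2 groups were fitted alone. Without vehicle replicate 2, Mlycd (-0.29, adjusted p = 0.065), Acadm (-0.19, adjusted p = 0.199) and Acot2 (-0.59, adjusted p = 0.0708) were not called. Without replicate 1 of Poly(I:C) plus vehicle, Acadm (-0.30, adjusted p = 0.135), Oxct1 (-0.23, adjusted p = 0.119) and Acot2 (-0.37, adjusted p = 0.301) were not called. Without its replicate 2, Acot2 was still called, at -1.03, and Mlycd (-0.32, adjusted p = 0.0922), Acadm (-0.33, adjusted p = 0.0816) and Oxct1 (-0.27, adjusted p = 0.058) were not called. Acadm also missed it without replicate 1 of Poly(I:C) with MSDC (-0.29, adjusted p = 0.0513). Hadha, the partner of Hadhb, had a value of -0.17 (SE 0.06, adjusted p = 0.0683), and was called under 5 of the 16 alternatives, for example with scaling by library totals (-0.23, adjusted p = 0.0155) and with DESeq2 (-0.18, adjusted p = 0.0331).

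In cells given MSDC, edgeR called 0 of the 34 genes for Poly(I:C), where 4.82% of all genes were higher and 1.5% lower. At an unadjusted p under 0.05 there were 3 genes (8.82%, against 16.4% of all tested genes), DESeq2 called 3 and limma on log2(TPM + 1) called 0. The 3 that DESeq2 called were Bdh1 (edgeR -0.32, SE 0.09, adjusted p = 0.0501), Acsl5 (0.23, SE 0.07, adjusted p = 0.0522) and Hadhb (-0.22, SE 0.07, adjusted p = 0.0842). Over the alternatives their adjusted p ran from 0.0112 to 0.501, from 0.00829 to 0.437 and from 0.0159 to 0.555. Oxct1 had a value of -0.02 (SE 0.06) here, Acot2 of -0.24 (SE 0.16), Mlycd of -0.17 (SE 0.08) and Acadm of 0.00 (SE 0.08).

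**Figure D4:**
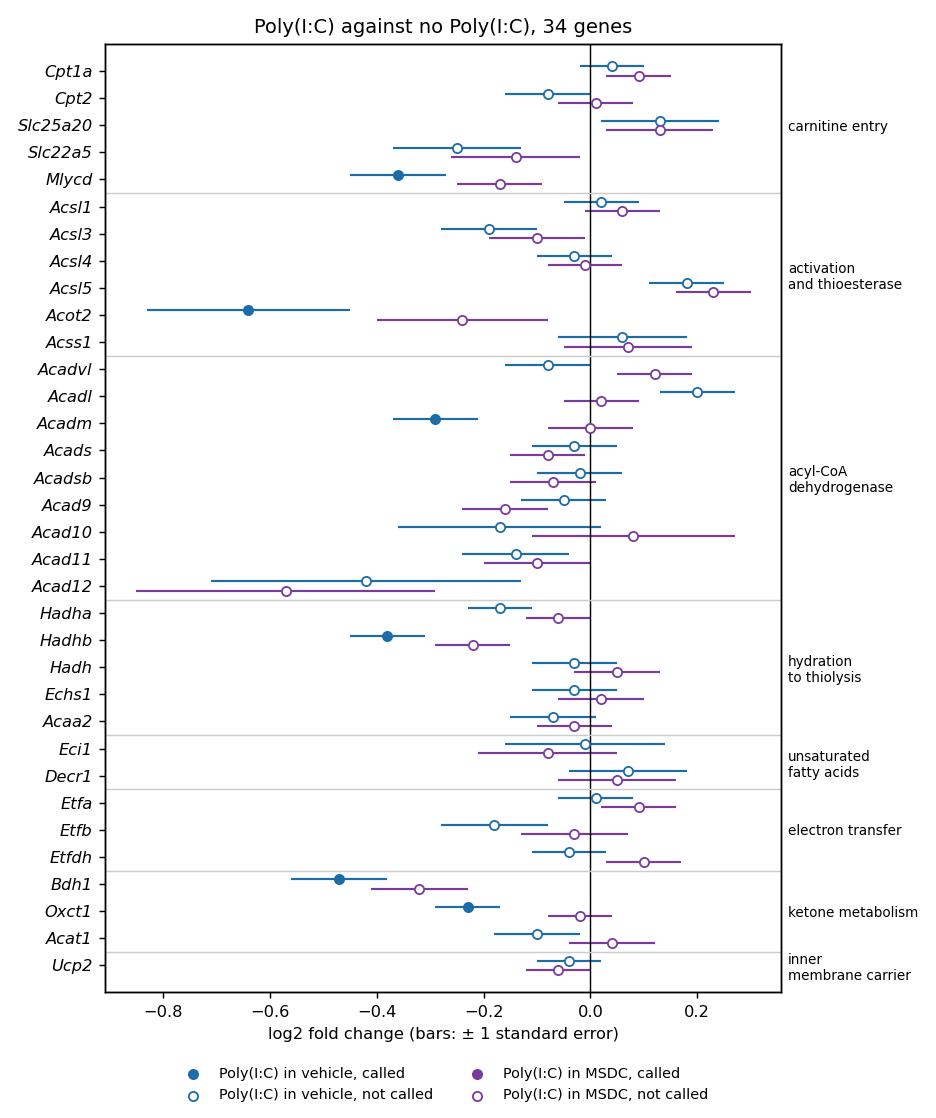
Log2 fold change of Poly(I:C) against no Poly(I:C) (horizontal axis, bars ± 1 standard error) for the 34 genes, in cells given vehicle (blue) and MSDC (purple). The 6 filled blue points are the called falls, from -0.23 to -0.64, and no gene was called in MSDC.

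Whether MSDC changed the response to Poly(I:C), or the reverse, was tested by the interaction. With edgeR 0 of 34 genes were called, where 0.12% of all genes were higher and 0.103% lower. DESeq2 and limma also called 0, and 2 genes (5.88%) had an unadjusted p under 0.05, against 6.51% of all tested genes, so the share was close to the background. The 2 were Acadm, with a difference between the MSDC changes of 0.30 (95% interval 0.04 to 0.55, adjusted p = 0.705), and Oxct1, with 0.21 (0.03 to 0.39, adjusted p = 0.711). For Cpt1a the interval of the difference was -0.13 to 0.23, for Acsl1 -0.18 to 0.24, for Acaa2 -0.19 to 0.28 and for Hadhb -0.04 to 0.38. The widest intervals belonged to Acad12 (-1.01 to 0.71), Acad10 (-0.34 to 0.83) and Acot2 (-0.13 to 0.93). For these genes any difference within the bounds is compatible with the data.

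Genes around the pathway were counted from separate lists, to be read against 11.1% higher and 12.4% lower of all tested genes with MSDC alone, and 12.5% and 13.6% with Poly(I:C). Of 13 peroxisomal oxidation genes, which shorten very long chains outside mitochondria, 7 rose with MSDC alone and 8 with Poly(I:C), none fell, and the median was 0.32 and 0.36. Acaa1b, a peroxisomal thiolase, stood at 8.69 and 6.93 TPM with vehicle, 389 and 363 with MSDC, 5.72 and 5.12 with Poly(I:C) and vehicle, and 251 and 275 with both. It rose by 5.66 (SE 0.10) and 5.55 (SE 0.10), and its counts were not whole, so reads may be shared with its close copy Acaa1a. Hsd17b4, a bifunctional enzyme of the peroxisomal cycle, rose by 1.36 (SE 0.07) and 1.54 (SE 0.07), and Abcd2, an importer of very long acyl-CoA, by 0.98 (SE 0.06) and 1.16 (SE 0.06). Of 11 tested genes in a list of PPAR targets 10 rose in both settings. The gene not called was Cpt1b (-0.00, SE 0.32, and 0.70, SE 0.32, adjusted p = 0.123). Cpt1b belongs to carnitine entry and is counted again in the list of other carnitine genes below. The 10 included the lipid droplet genes Cidec (3.49 and 3.27, SE 0.08 each) and Plin2 (2.14 and 1.96, SE 0.06 each), the lipase inhibitor Angptl4 (3.06 with MSDC alone, SE 0.08) and the fatty acid receptor Cd36 (2.03 and 2.00, SE 0.06 each). Pdk4, the kinase that turns pyruvate dehydrogenase off, rose by 4.82 (SE 0.27) and 4.28 (SE 0.25). These rises start near the floor and end at low levels. Pdk4 stood at 0.24 and 0.2 TPM with vehicle, 6.48 and 5.87 with MSDC, 0.19 and 0.48 with Poly(I:C) and vehicle, and 6.14 and 7.28 with both.

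Among 19 other mitochondrial acyl-CoA, branched chain and propionate genes, 3 rose and 1 fell with MSDC alone, and 4 rose and 3 fell with Poly(I:C), with medians of -0.06 and -0.02. These were 15.8% and 5.26%, and 21.1% and 15.8%, of the list, against 11.1% and 12.4%, and 12.5% and 13.6%, of all tested genes. Ech1, an isomerase for dienoyl-CoA, rose by 1.35 (SE 0.07) and 1.24 (SE 0.07), Eci2, a further enoyl-CoA isomerase, by 0.28 (SE 0.07) and 0.47 (SE 0.07), and Hibadh, of valine breakdown, fell by 0.28 (SE 0.07) and 0.38 (SE 0.07). Of 5 tested genes in the list of other carnitine enzymes and carriers, Crat, the carnitine acetyltransferase, rose by 0.53 (SE 0.06) and 0.63 (SE 0.06), and 4 were not called. Of 5 further ketone genes tested, 3 rose with MSDC alone and 4 with Poly(I:C). Acat2, the cytosolic thiolase, rose by 0.64 (SE 0.09) and 0.80 (SE 0.09), and Aacs, which activates acetoacetate in the cytosol, by 0.30 (SE 0.07) and 0.41 (SE 0.08). With Poly(I:C) in vehicle 4 of these 5 fell, against 4.1% lower of all tested genes. Acat2 fell by 0.47 (SE 0.09), Aacs by 0.37 (SE 0.08), and the monocarboxylate transporter genes Slc16a1 and Slc16a6 by 0.39 each (SE 0.09).

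Of 17 tested regulators 6 rose and 4 fell with MSDC alone, and 7 rose and 4 fell with Poly(I:C). The receptor genes did not share a direction. Pparg fell by 0.65 (SE 0.06) and 0.62 (SE 0.06), Ppard by 0.34 (SE 0.08) and 0.31 (SE 0.08), and their partner Rxra by 0.38 (SE 0.06) and 0.35 (SE 0.06). Esrra, an orphan receptor gene named after its values were seen, rose by 0.31 (SE 0.09, adjusted p = 0.0133) and 0.41 (SE 0.09, adjusted p = 0.00217), and Rxrb, likewise, had values of 0.11 (SE 0.08) and 0.21 (SE 0.08) and was not called. The coactivator gene Ppargc1b fell by 0.73 (SE 0.10) and 0.46 (SE 0.10). Lpin1, a phosphatidate phosphatase that also acts as a coactivator, rose by 0.46 (SE 0.06) and 0.67 (SE 0.07), and the corepressor gene Ncor1 by 0.29 (SE 0.07) and 0.44 (SE 0.07). Ppara, the receptor best known for control of fatty acid oxidation in liver, held 1 count in 1 vehicle library and 0 in the other 7, and Ppargc1a held 2 counts in 1 library and 0 in the other 7, so neither was tested. Acaca, chosen after its values were seen because it makes the malonyl-CoA that Mlycd removes, rose by 0.46 (SE 0.08) and 0.50 (SE 0.08).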

How the data were processed

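RNA-seq had been made from 8 libraries of cultured mouse alveolar macrophages. The authors deposited, for each gene and library, an estimated count of reads, a TPM and an FPKM. These estimated counts were made by the authors and are not normalized, per the file headers and values. Cuffdiff, TopHat2 2.1.1, Bowtie2 2.3.4 and the build GRCm38 appear in the submitters' processing notes, without saying which made which column. The deposited FPKM values were not used. The deposited TPM are given as levels, with no further scaling. Between 5.95 and 7.19% of the deposited counts of a library were not whole, in 6 of the 34 genes among them, and all were rounded. TMM scaling gave factors of 0.985 to 1.027, and 11621 genes passed filterByExpr. A single quasi-likelihood model over the 4 groups and 8 libraries was fitted (edgeR 4.0.16, R 4.3.3, 4 residual degrees of freedom), two-sided, with Benjamini-Hochberg adjustment over all tested genes in each of 5 comparisons and a threshold of 0.05. To the residual degrees of freedom the fit added 10.84 prior degrees of freedom (median), drawn from the spread over all tested genes. Standard errors were derived from the change and its F statistic, and intervals are at 95% and use both kinds of degrees of freedom. A floor of 3 counts is 0.102 to 0.104 CPM, which covers counting error only. DESeq2 1.42.0 and limma 3.58.1 (log2 of TPM plus 1 or 0.1) were alternatives, beside other scalings, no filter, a replicate block, the compared groups alone and each library left out. Gene names in the text are all 34 members and, for the other lists, up to 4 called genes with the smallest p in a comparison (Acaca, Cpt1b, Esrra and Rxrb were added after their values were seen) and Pdk4, Ppara, Ppard, Pparg, Ppargc1a and Ppargc1b. Some genes that this rule names are not reported here. Members and lists were chosen with earlier results of these data known.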

Additional observations from a re-analysis of the deposited data

How the results depend on the processing

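Each of the 5 comparisons was refitted under 15 or 16 alternative settings. With MSDC alone 17 of the 19 rises and the 4 falls were called under every setting, and with MSDC and Poly(I:C) 18 of the 19 rises and 2 of the 4 falls. No member that was called changed sign. The 4 falls with MSDC and Poly(I:C) numbered 2 to 4 over the left-out libraries, the lowest being without replicate 1 of that group. For Poly(I:C) in vehicle the 6 falls became 2 with the compared groups alone and 3 to 8 with a library left out (3 without vehicle replicate 2 or without the first Poly(I:C) plus vehicle library), and rises were 0 to 1. For Poly(I:C) in MSDC, 0 rises became 1 with DESeq2, without the filter and with the compared groups alone, and were 0 to 1 with a library left out. The 0 falls there became 1 with RLE scaling, 2 with library totals alone, 2 with DESeq2, 2 without the filter, 2 with the compared groups alone and 0 to 2 with a library left out. With the replicate number as a block, 1 member fell with Poly(I:C) in MSDC (Bdh1, -0.32, adjusted p = 0.032). The block changed no other call among the members. Whether replicate numbers pair the libraries is not given in the labels. Over 6 pairs of groups the correlation of replicate differences was -0.0257 to 0.0506. This cannot decide the question, since paired libraries with little shared variation would also give values near these. Over all genes, the 477 falls with Poly(I:C) in vehicle were 867 with library totals alone, 257 with the compared groups alone and 243 without the first Poly(I:C) plus vehicle library. The 174 falls with Poly(I:C) in MSDC were 415 with the compared groups alone, 298 without the filter and 51 to 332 with a library left out, and the 560 rises were 365 without MSDC replicate 2. The 1294 rises with MSDC alone were 819 and 822 without MSDC replicates 1 and 2. The interaction's 14 higher genes ranged from 3 to 64 and its 12 lower genes from 2 to 52, both highest without the filter. The cause of these changes was not tested. Acad12 had the fewest counts of the members, 38.4 to 80.3 a library, which limits its precision.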
